A study of Mus musculus with 30 samples.

Results

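The response difference described here is the change in RNA level that induced pluripotent stem (iPS) cells made on the way to endoderm, minus the change that embryonic stem (ES) cells made. It was taken for every gene as the day 5 minus day 0 change, averaged over the iPS clones ST5 and ST8, minus the same change in ES cells. All 18 unamplified arrays of the series of 30 enter it. They fall into 6 groups of 3 labelled as biological replicates: ST5, ST8 and ES cells at day 0, sorted as bright for Sox2, and the same lines at day 5 of differentiation, sorted for Kit and for dim Sox2. iPS cells are made by reprogramming somatic cells to pluripotency. All cells had the strain background C57BL/6x129SvJae, each clone is 1 clone, and the ES cells are 1 line, so that a trait of a line cannot be told apart from a trait of iPS or ES cells in general. Nor can the effect of differentiation be told apart from that of the sort, for which Sox2 and Kit were used. Values are log2 expression per gene on Affymetrix Mouse Gene 1.0 ST arrays, where 1 unit is 2-fold, and levels of different genes are not compared. Fewer cells of a type and less RNA per cell cannot be told apart in such bulk samples.

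Definitive endoderm, the source of the gut lining, lung, liver and pancreas, arises from pluripotent cells through a state like the primitive streak. Nodal or activin, Wnt and BMP signals drive that state, and the T-box factor Eomes and the homeobox factor Mixl1 mark it. Epithelial genes are remodelled along the way, with cadherins and claudins changing as cells leave and rejoin an epithelium.

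A gene can respond differently because the lines differed before differentiation began or because they differed after it. The response difference equals the gap between the clones and ES cells at day 5 (the end) minus the gap at day 0 (the start), so both were tested beside it. The sum of the 2 gaps was tested as well. Where it was called with the sign of the response difference, the gap was larger in size at day 5, and where it was called with the opposite sign, the gap was larger at day 0. Calls are at an adjusted p (limma, Benjamini-Hochberg over 19938 genes) under 0.05.

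Axin2, Notum, Frzb, Evx1, Gsc, Lhx1, Cldn3, Cldn4, Pkp2, Rbp4, Apoa1 and Mir376b were named after their values were seen.

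The arrays carried the labelled cell types, with a split among those of day 5. Pou5f1, the core pluripotency factor, stood between 10.94 and 11.12 on all 9 arrays of day 0. At day 5 it had 8.36, 8.40 and 8.29 in ST5 and 10.48, 7.25 and 10.43 in ST8, against 8.41, 9.64 and 9.61 in ES. Sox17, which specifies endoderm, had 8.99, 8.82 and 8.69 in ST5 and 7.40, 9.30 and 7.23 in ST8, against 9.35, 7.15 and 7.28 in ES at day 5, where the highest values of the ES and ST8 groups were those of ES replicate 1 and ST8 replicate 2. The mean level of the 22 measured definitive endoderm genes followed the same split at day 5, with 9.74, 9.69 and 9.68 in ST5 and 8.80, 9.83 and 8.78 in ST8, against 9.73, 8.64 and 8.68 in ES. That of 26 pluripotency genes ran the other way in ST8, with 6.08, 6.14 and 6.15 in ST5 and 6.57, 6.13 and 6.54 in ST8, against 6.32, 6.46 and 6.51 in ES. In endoderm level, ES replicate 1 and ST8 replicate 2 thus lay with the 3 ST5 arrays, and the other ES and ST8 arrays lay apart from them, lower. In pluripotency level, ST8 replicate 2 lay with ST5 and ES replicate 1 between ST5 and the rest. The group spread (root mean square SD over genes) was 0.115 in ST5, 0.238 in ST8 and 0.199 in ES at day 5, and 0.136 in ST5, 0.106 in ST8 and 0.114 in ES at day 0. How far this split enters the day 5 results was not tested, and values with each array left out stand beside them.

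The clones and ES cells responded differently at 423 genes (2.12% of those tested), of which 215 were higher (1.08%) and 208 lower (1.04%) in the clones' response. A total of 70 differed at least 2-fold. Each line by itself changed far more, with 9558 genes in ST5 (47.9%), 8070 in ST8 (40.5%) and 7689 in ES cells (38.6%). Among the 215 genes with a higher response in the clones, 67 rose in all 3 lines and 55 rose in both clones without a call in ES cells. Of the 208 with a lower response, 88 fell in all 3 lines and 35 fell in both clones without a call in ES cells. The count of 423 rested on single arrays: it was 1746 without ES day 5 replicate 1 and 669 without ST8 day 5 replicate 2. It was 190 and 172 without ES day 5 replicates 2 and 3, 198 and 171 without ES day 0 replicates 1 and 3, and 271 and 241 without ST8 day 0 replicates 1 and 3.

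More of the 423 genes were called at the start alone than at the end alone. The start alone was called for 197 of them (46.6%), the end alone for 144 (34%), both for 43 and neither for 39. Over the 197 genes the median size of the gap was 0.48 at day 0 and 0.12 at day 5, and over the 144 it was 0.14 at day 0 and 0.42 at day 5. The test of the gap sizes placed 98 genes with the larger gap at day 0 and 42 with the larger gap at day 5, and did not tell the sizes of 283 apart. In all tested genes, the start was called for 971 (4.87%), with 448 higher (2.25%) and 523 lower (2.62%) in the clones. The end was called for 1713 (8.59%), with 860 higher (4.31%) and 853 lower (4.28%). This order of start and end counts depended on the spread model, since the main fit shared an estimate of the spread over all groups. With array weights, or with the groups of each contrast fitted alone, more genes were called at the start than at the end, as given under processing below. The start count was 487, 527 and 502 without ES day 0 replicates 1, 2 and 3 and 1458 without ST8 day 5 replicate 2. The end count was 4485, 317 and 233 without ES day 5 replicates 1, 2 and 3 and 952 and 1076 without ST5 day 5 replicates 1 and 2. The balance of start and end turned with 1 array: without ES day 5 replicate 1, 16.6% of the calls were at the start alone and 68.3% at the end alone. In all other leave-outs the start alone was the larger class, except without ST8 day 5 replicate 3, where it held 39.4% against 41% at the end alone.

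**Figure D1:**
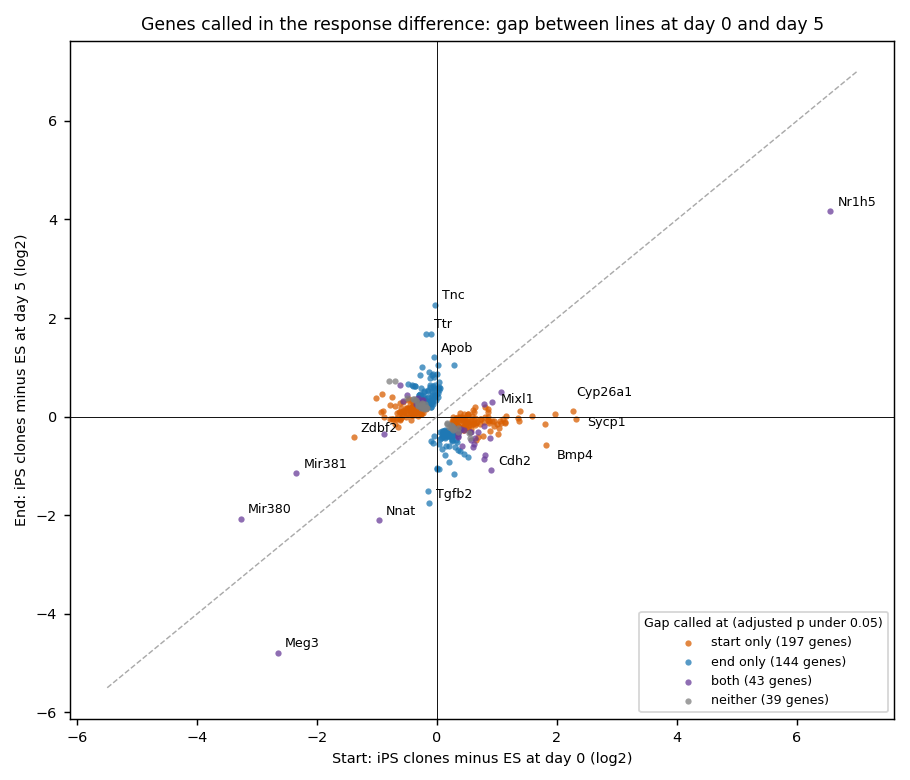
Each point is 1 of the 423 genes called in the response difference, with the gap between iPS clones and ES cells at day 0 on the x axis and at day 5 on the y axis (both log2), coloured by where the gap was called. Points along the x axis (197 genes called at the start alone) differed at day 0, and points along the y axis (144 at the end alone) at day 5. The dashed line marks an equal gap on both days.

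Before differentiation, the clones held 6 of 15 primitive streak genes, 6 of 21 Wnt pathway genes and 4 of 15 BMP pathway genes at higher levels than ES cells, against 2.25% of all genes. Bmp4, a ligand that patterns the streak and mesoderm, had 8.63, 8.53 and 8.73 in ST5 and 9.07, 9.01 and 9.10 in ST8, against 7.04, 7.04 and 7.03 in ES at day 0. All clone arrays were above all ES arrays. By day 5 it had 5.91, 5.73 and 6.04 in ST5 and 6.56, 5.67 and 6.78 in ST8, against 6.16, 6.94 and 6.95 in ES. There ST8 and ES arrays overlapped, and every ST5 array was below every ES array. By clone the end was -0.79 (adjusted p = 0.0213) for ST5 and -0.35 (adjusted p = 0.483) for ST8. In the mean of the clones, the gap was 1.81 (SE 0.20, adjusted p = 3.09e-05) at the start and -0.57 (SE 0.20, adjusted p = 0.0796) at the end. That left a response difference of -2.38 (SE 0.28, adjusted p = 0.000324).

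Mixl1 had 8.73, 8.09 and 7.08 in ST5 and 7.55, 7.13 and 7.80 in ST8, against 5.76, 5.90 and 5.63 in ES at day 0. Even the lowest clone array, ST5 replicate 3, was above every ES array, though the ST5 arrays spread widely. By day 5 it had 6.29, 6.60 and 6.64 in ST5 and 6.62, 6.30 and 6.45 in ST8, against 6.77, 6.33 and 6.19 in ES, with all lines overlapping. Mixl1 fell in both clones, by 1.45 in ST5 and by 1.03 in ST8, and the ES change of 0.67 (adjusted p = 0.0844) was not called. The response difference was -1.91 (SE 0.36, adjusted p = 0.0104), with a start of 1.97 and an end of 0.06.

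Eomes, which turns on endoderm genes in the streak, had 8.47, 8.09 and 7.36 in ST5 and 7.58, 7.39 and 7.69 in ST8, against 5.99, 6.33 and 6.21 in ES at day 0. All clone arrays were above all ES arrays. At day 5 the values were 8.41 to 8.48 in ST5 and 8.22 to 8.57 in ST8, against 8.04 to 8.82 in ES, and the lines overlapped. Eomes rose by 0.79 in ST8 and by 2.19 in ES cells, and its change of 0.46 (adjusted p = 0.104) in ST5 was not called. The response difference of -1.57 (SE 0.27, adjusted p = 0.00694) came with a start of 1.59 (adjusted p = 0.000103) and an end of 0.02 (adjusted p = 0.953).

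Of the 15 primitive streak genes measured, 4 had a lower response in the clones (Mixl1, Eomes, Fgf8 and Evx1) and 1 a higher response (Nodal), against 1.04% and 1.08% of all genes. At day 0, 6 of the 15 were higher in the clones and 1 lower, and at day 5 none was called. The median response difference of the list was -0.38, beside -0.02 over all genes. Gsc, a homeobox factor of the organizer region, and Lhx1, a LIM factor needed for head organizer function, had start gaps of 1.02 (adjusted p = 0.00981) and 1.64 (adjusted p = 0.0072), but response differences of -1.15 (adjusted p = 0.0614) and -1.12 (adjusted p = 0.243) that missed the threshold. For Gsc, the start missed the threshold once ES day 0 replicate 3 was left out (adjusted p = 0.069). Fgf8, a ligand that moves cells out of the streak, had a response difference of -0.86 (adjusted p = 0.0182), and its call was lost without ES day 0 replicate 1 or 3 (adjusted p up to 0.0728). That of the homeobox gene Evx1, -0.55 (adjusted p = 0.0209), was lost without ES day 0 replicate 2 or 3 or ES day 5 replicate 3 (up to 0.0781). Without ES day 0 replicate 3, 2 streak genes in place of 4 had a lower response. Nodal, the ligand that induces endoderm, had a higher response in the clones, with 8.39, 8.05 and 8.02 in ST5 and 7.98, 7.83 and 7.91 in ST8, against 8.38, 8.46 and 8.48 in ES at day 0. At day 5, Nodal had 7.82, 7.72 and 7.83 in ST5 and 7.84, 8.13 and 8.04 in ST8, against 7.68, 7.65 and 7.57 in ES. All ST8 arrays were below all ES arrays at day 0, and all clone arrays were above them at day 5. Its response difference was 0.68 (SE 0.11, adjusted p = 0.00573), with a start of -0.41. T had no probe set of its own here.

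In the Wnt pathway, 6 of 21 measured genes had a lower response in the clones and 0 a higher one, and the same 6 were higher in the clones at day 0. Of all genes, 1.04% had a lower response and 2.25% were higher at day 0. The median response difference of the list was -0.25. The count was 5 to 7 with any single array left out. Sp5, a transcription factor that Wnt signals turn on, had 7.87, 7.87 and 7.67 in ST5 and 7.55, 7.47 and 7.40 in ST8, against 6.16, 6.38 and 6.30 in ES at day 0. The clones' lowest array was above the highest ES array by more than the spread within any line. At day 5 all 9 arrays lay together, with 5.63, 5.75 and 5.88 in ST5 and 5.73, 5.64 and 5.73 in ST8, against 5.91, 5.82 and 5.74 in ES. Its response difference was -1.46 (SE 0.10, adjusted p = 9.86e-07), with a start of 1.36 and an end of -0.10, and it held with every array left out.

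Feedback inhibitors of the pathway ran in parallel with Sp5. Axin2, which promotes beta-catenin breakdown, had 7.44, 7.57 and 7.27 in ST5 and 7.27, 7.16 and 6.89 in ST8, against 6.45, 6.68 and 6.64 in ES at day 0. At day 5, Axin2 had 5.19, 5.33 and 5.32 in ST5 and 5.76, 5.34 and 5.83 in ST8, against 5.50, 6.01 and 6.10 in ES, with a response difference of -1.09 (SE 0.19, adjusted p = 0.00661). Clone and ES arrays did not overlap at day 0. Its start lost the call when ES day 0 replicate 1 was left out (adjusted p = 0.0538). Notum, an enzyme that inactivates Wnt ligands, had a response difference of -1.16 (adjusted p = 0.0103), and its start was called while its end was not. Lef1, which binds DNA with beta-catenin, had one of -1.21 (adjusted p = 0.00206) and a start of 1.07. Frzb, a secreted Wnt antagonist, had one of -1.27 (adjusted p = 0.033), and its call was lost without ST5 day 0 replicate 2, ST8 day 0 replicate 1 or 3, any ES day 0 array, any ST5 day 5 array or ES day 5 replicate 2 or 3 (adjusted p up to 0.091).

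Lgr5, a receptor that strengthens Wnt signals, changed sides in the mean of the clones. At day 0 it had 5.81, 5.24 and 5.34 in ST5 and 5.69, 5.77 and 5.65 in ST8, against 4.79, 4.76 and 4.87 in ES, with both clones above ES cells. At day 5 it had 6.91, 6.85 and 6.85 in ST5 and 7.57, 6.72 and 7.30 in ST8, against 7.51, 8.31 and 7.87 in ES, where all ST5 arrays were below all ES arrays and ST8 replicate 1 overlapped with ES replicate 1. The response difference was -1.64 (SE 0.24, adjusted p = 0.00219), from a start of 0.78 (adjusted p = 0.0145) and an end of -0.86 (adjusted p = 0.00892). The start call was lost without any 1 of the ES day 0 arrays (adjusted p up to 0.0717), the end call without ES day 5 replicate 2 or 3 (up to 0.0767), and the response difference stayed called throughout.

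The promoter of Sp5 is shown because it was the 1 promoter, among the 4 available for the 6 called Wnt pathway genes, that held the core motif of TCF and LEF factors. It is read from RefSeq (GRCm38.p6) at chr2:70474673-70474972 on the plus strand, from 250 bases before the start site to 50 after it, with the motif in capitals.
Sp5: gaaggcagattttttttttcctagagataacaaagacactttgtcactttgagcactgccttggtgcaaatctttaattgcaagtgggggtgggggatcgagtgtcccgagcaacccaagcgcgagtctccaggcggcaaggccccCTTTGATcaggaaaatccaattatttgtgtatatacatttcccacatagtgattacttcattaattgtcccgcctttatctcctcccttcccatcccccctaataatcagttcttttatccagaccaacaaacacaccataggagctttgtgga
The motif searched was CTTTGAT or, on the other strand, ATCAAAG. Of the 15614 tested genes with a promoter in the table, 580 (3.71%) held it, as did 3 of 13 measured Wnt pathway genes (Sp5, Wnt5b and Wnt11) and 0 of 2 called streak genes. A match of letters is a description and not evidence of binding.

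Other genes closed a start gap in the same way. Cyp26a1, which breaks down retinoic acid, had 8.12, 7.46 and 7.01 in ST5 and 7.55, 8.11 and 7.80 in ST8, against 4.85, 5.54 and 5.84 in ES at day 0. At day 5, Cyp26a1 had 10.52, 10.61 and 10.56 in ST5 and 9.65, 10.71 and 9.67 in ST8, against 10.68, 9.94 and 9.88 in ES. It rose in every line, less so in the clones, which began higher, with a response difference of -2.14 (SE 0.39, adjusted p = 0.00997). Epha4, an ephrin receptor, had 8.43, 8.36 and 8.64 in ST5 and 8.80, 8.74 and 8.78 in ST8, against 6.87, 6.73 and 6.88 in ES at day 0 and a response difference of -1.96 (SE 0.11, adjusted p = 7.54e-08). Clone arrays were above ES arrays without overlap at day 0. Epha4 rose in ES cells and fell in both clones, and the end of -0.16 (adjusted p = 0.186) was not called. Cer1, which anterior endoderm secretes to block Nodal, BMP and Wnt ligands, had a start of 1.05 (adjusted p = 0.00207) and a response difference of -1.14 (adjusted p = 0.0271), whose call was lost without any 1 of the ES day 0 arrays or ES day 5 replicate 2 (up to 0.0894).

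**Figure D2:**
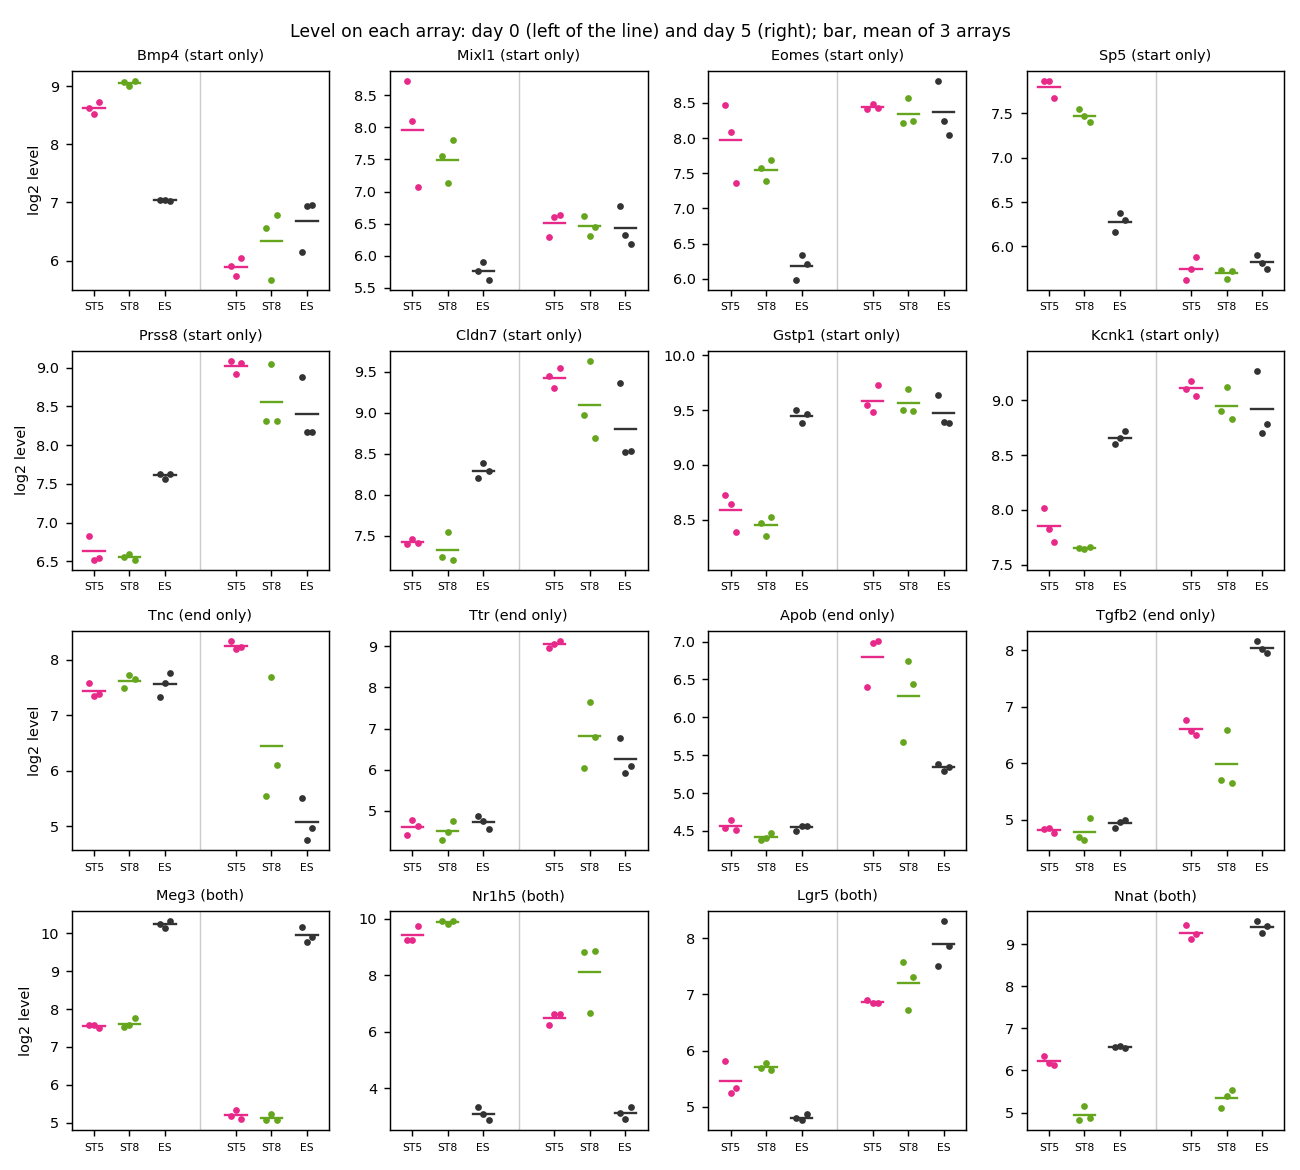
Log2 level of 16 genes on each of the 18 arrays, for ST5, ST8 and ES cells at day 0 (left of the line) and day 5 (right), with a bar at the mean of 3 arrays. In the 2 upper rows the clones stand apart from ES cells at day 0. In the third row they do so at day 5, except for Ttr, where ST8 and ES arrays overlap. In the lowest row the clones' mean stands apart on both days.

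Of 19 measured epithelial genes, 5 started lower in the clones and 6 had a higher response than in ES cells, against 2.62% and 1.08% of all genes. Prss8, a membrane serine protease of epithelia outside that list, had 6.83, 6.52 and 6.54 in ST5 and 6.55, 6.60 and 6.52 in ST8, against 7.63, 7.57 and 7.63 in ES at day 0. All clone arrays were below all ES arrays. At day 5 it had 9.09, 8.92 and 9.06 in ST5 and 8.31, 9.05 and 8.31 in ST8, against 8.88, 8.18 and 8.16 in ES. ST8 and ES arrays were interleaved there, and every ST5 array was above every ES array. By clone the end was 0.61 (adjusted p = 0.0274) for ST5 and 0.15 (adjusted p = 0.748) for ST8. In the mean of the clones, the response difference was 1.39 (SE 0.23, adjusted p = 0.00444), with a start of -1.01 (adjusted p = 0.00128) and an end of 0.38 (adjusted p = 0.14). The sizes of these gaps were not told apart.

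Cldn7, a claudin of tight junctions, had 7.40, 7.45 and 7.41 in ST5 and 7.24, 7.55 and 7.21 in ST8, against 8.20, 8.38 and 8.29 in ES at day 0. At day 5, Cldn7 had 9.44, 9.30 and 9.54 in ST5 and 8.97, 9.63 and 8.69 in ST8, against 9.36, 8.52 and 8.53 in ES. At day 0 the clone arrays lay below the ES arrays, and at day 5 all lines overlapped. The response difference of Cldn7 was 1.37 (SE 0.26, adjusted p = 0.012). Leaving out ES day 5 replicate 3 took it past the threshold (adjusted p = 0.0541). Leaving out ES day 0 replicate 2 did so for the start of -0.91 (adjusted p = 0.00826), at 0.0523.

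The 6 of the 19 genes of epithelial junctions and keratins with a higher response in the clones were Cldn7, Grhl2, Cldn4, Pkp2, Cldn3 and Epcam, and 0 had a lower one. The median was 0.59, the most positive of the lists described here, beside -0.02 over all genes. At day 0 none was higher in the clones, and at day 5, 2 were higher and 1 lower, against 4.31% and 4.28% of all genes. Cldn4, another claudin, had 9.16, 9.13 and 9.42 in ST5 and 9.16, 9.58 and 9.01 in ST8, against 10.26, 9.99 and 10.15 in ES at day 0. There all clone arrays stood below all ES arrays, and at day 5 the values 9.40, 9.14 and 9.24 in ST5 and 8.99, 9.28 and 9.05 in ST8, against 9.12, 9.19 and 9.25 in ES overlapped. Cldn4 fell by 0.95 in ES cells and was not called in either clone. Its response difference was 0.89 (SE 0.16, adjusted p = 0.00753), and that of Pkp2, a plakophilin of desmosomes, was 0.61 (SE 0.10, adjusted p = 0.00288). Both held with every array left out.

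The other 3 epithelial calls were lost when some day 0 arrays, as well as some day 5 arrays, were left out. Grhl2, a transcription factor that maintains epithelia, had 7.83, 7.67 and 7.61 in ST5 and 6.51, 7.13 and 6.45 in ST8, against 7.13, 6.14 and 6.32 in ES at day 5, where ES replicate 1 and ST8 replicate 2 were the highest of their groups. Its response difference of 1.15 (adjusted p = 0.0254) was lost without ES day 0 replicate 1 or 3 or ES day 5 replicate 2 or 3 (adjusted p up to 0.0935). Epcam and Cldn3 had 0.56 (adjusted p = 0.035) and 0.59 (adjusted p = 0.0479), calls that were lost in 12 and 13 of the 18 leave-outs. The mean level of the list at day 5 was 9.11, 9.07 and 9.08 in ST5 and 8.66, 9.17 and 8.69 in ST8, against 9.09, 8.55 and 8.54 in ES. The count of 6 became 14 without ES day 5 replicate 1 and 9 without ST8 day 5 replicate 2. It was 2 without ES day 5 replicate 3, 3 without ES day 5 replicate 2 or ES day 0 replicate 1 or 3, and 4 without ES day 0 replicate 2, ST5 day 0 replicate 3, any ST8 day 0 array or any ST5 day 5 array. None of the 12 epithelial promoters available held AACCGGTT, the motif of grainyhead-like factors, which 0.199% of all tested promoters held.

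Outside that list, Gstp1, a glutathione transferase, had 8.72, 8.64 and 8.39 in ST5 and 8.47, 8.35 and 8.52 in ST8, against 9.50, 9.38 and 9.46 in ES at day 0. At day 5, Gstp1 had 9.54, 9.48 and 9.73 in ST5 and 9.51, 9.69 and 9.49 in ST8, against 9.64, 9.39 and 9.38 in ES. The clone arrays were all below the ES arrays at day 0 and overlapped with them at day 5. The response difference of Gstp1 was 1.04 (SE 0.12, adjusted p = 0.000324). Kcnk1, a potassium channel, had one of 1.02 (SE 0.15, adjusted p = 0.00175), with a start of -0.91 and an end of 0.11. Tet2, which oxidises methylated cytosine in DNA, had a start of -0.63 (adjusted p = 0.00164) and a response difference of 0.90 (adjusted p = 0.00389).

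**Figure D3:**
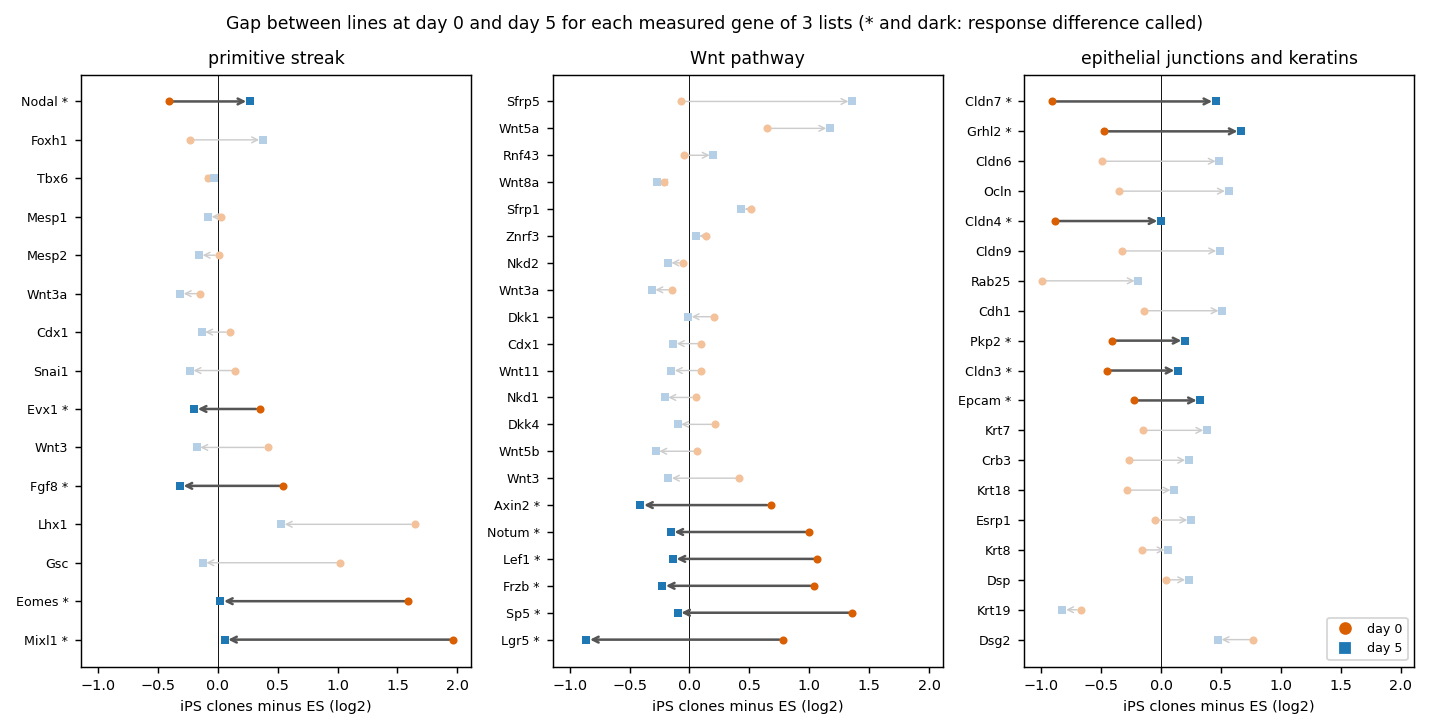
Gap between iPS clones and ES cells (log2) at day 0 (circles) and day 5 (squares) for each measured gene of the primitive streak, Wnt pathway and epithelial lists, with an arrow from day 0 to day 5. Genes called in the response difference are dark and starred. Of 21 Wnt genes, 18 run leftwards, and the 6 starred ones run to or past 0. Of 19 epithelial genes, 17 run rightwards, and 6 of these are starred.

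Genes called at the end alone had no called gap at day 0, which does not show that their levels were equal there. The test of gap sizes placed 40 of these 144 genes with the larger gap at day 5 and did not tell 104 apart. Tgfb2, a TGF-beta ligand, had 4.83, 4.85 and 4.77 in ST5 and 4.70, 4.64 and 5.02 in ST8, against 4.85, 4.97 and 5.00 in ES at day 0. At day 5 it had 6.77, 6.56 and 6.51 in ST5 and 5.70, 6.59 and 5.65 in ST8, against 8.17, 8.03 and 7.96 in ES, with every clone array below every ES array. It rose in all lines, less in the clones, and the response difference of -1.62 (SE 0.22, adjusted p = 0.00102) matched an end of -1.75 (SE 0.16, adjusted p = 8.21e-06) beside a start of -0.14.

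Tnc, the matrix protein tenascin C, had 7.58, 7.35 and 7.38 in ST5 and 7.50, 7.72 and 7.65 in ST8, against 7.34, 7.59 and 7.77 in ES at day 0. At day 5, Tnc had 8.34, 8.20 and 8.23 in ST5 and 5.54, 7.69 and 6.10 in ST8, against 5.51, 4.75 and 4.97 in ES. Each clone array was above every ES array at day 5, and the ST8 arrays spread widely, with replicate 2 the highest. Tnc fell by 1.18 in ST8 and by 2.49 in ES cells, and its change of 0.82 (adjusted p = 0.0684) in ST5 was not called. The response difference was 2.31 (SE 0.43, adjusted p = 0.011), with 3.31 (adjusted p = 0.00268) for ST5 and 1.31 (adjusted p = 0.32) for ST8.

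Ttr and Apob, a thyroxine carrier and a lipoprotein that visceral endoderm, liver and yolk sac make, were higher at day 5 in the mean of the clones. Ttr had 8.96, 9.05 and 9.13 in ST5 and 6.03, 7.66 and 6.80 in ST8, against 6.76, 5.92 and 6.09 in ES at day 5, where every ST5 array was above the rest. ST8 replicate 1 lay below ES replicate 1. Apob had 6.40, 6.98 and 7.01 in ST5 and 5.67, 6.75 and 6.44 in ST8, against 5.39, 5.29 and 5.34 in ES, with all clone arrays above all ES arrays. Their response differences were 1.86 (SE 0.35, adjusted p = 0.0118) and 1.25 (SE 0.24, adjusted p = 0.0119), and their starts were -0.18 and -0.05. By clone, Ttr had a response difference of 2.92 (adjusted p = 0.00177) in ST5 and 0.80 (adjusted p = 0.512) in ST8, and its end in ST8 was 0.58 (adjusted p = 0.349). The Apob call was lost when all 30 arrays were fitted together (adjusted p = 0.0861).

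Among 14 measured visceral endoderm markers, 2 had a higher response in the clones (Ttr and Apob) and 2 a lower one (Trf and Apoa2, carriers of iron and lipid). Of all genes, 1.08% had a higher and 1.04% a lower response. The median of the list was 0.11. At day 5, 4 of the 14 were higher in the clones, against 4.31% of all genes. Rbp4 and Apoa1 were the others, at 1.84 (adjusted p = 0.00595) and 1.65 (adjusted p = 0.00436). The end calls of both were lost without ES day 5 replicate 3, and that of Rbp4 also without replicate 2. Their response differences of 1.89 (adjusted p = 0.053) and 1.50 (adjusted p = 0.0731) missed the threshold. The mean level of the list at day 5 was 6.67, 6.77 and 6.82 in ST5 and 6.21, 6.70 and 6.51 in ST8, against 6.35, 6.05 and 6.13 in ES, and its role in these calls was not tested. Trf and Apoa2 were start differences, with starts of 0.79 (adjusted p = 0.000424) and 0.38 (adjusted p = 0.00603) and response differences of -0.89 (adjusted p = 0.00694) and -0.60 (adjusted p = 0.0064). For Apoa2, the start missed the threshold once ES day 0 replicate 2 was left out (adjusted p = 0.052), and the response difference once all 30 arrays were fitted together (0.481).

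Cpq, a secreted carboxypeptidase, was an end difference in both clones with little spread. It had 6.78, 6.48 and 6.49 in ST5 and 6.62, 6.98 and 6.77 in ST8, against 5.83, 5.84 and 5.68 in ES at day 5, with all clone arrays above all ES arrays. The response difference from ES cells was 0.96 (adjusted p = 0.00379) for ST5 and 1.14 (adjusted p = 0.00178) for ST8. Cdh2, the cadherin of mesenchymal and neural cells, crossed over in the mean of the clones, like Lgr5. It had 7.82, 7.44 and 7.01 in ST5 and 7.51, 7.57 and 7.58 in ST8, against 6.22, 6.65 and 6.90 in ES at day 0. At day 5, Cdh2 had 7.08, 7.48 and 7.42 in ST5 and 8.68, 7.43 and 8.52 in ST8, against 8.65, 9.16 and 8.78 in ES. Every ST5 array was below every ES array at day 5, ST8 replicate 2 lay with ST5, and ST8 replicate 1 lay above ES replicate 1. The response difference of Cdh2 was -1.99 (SE 0.33, adjusted p = 0.00536) and held with every array left out. By clone it was -2.36 (adjusted p = 0.00379) for ST5 and -1.61 (adjusted p = 0.0657) for ST8. The end by clone was -1.53 (adjusted p = 0.00173) and -0.65 (adjusted p = 0.262). The start call of 0.90 (adjusted p = 0.0391) was lost in 10 of 18 leave-outs (adjusted p up to 0.232) and the end call of -1.09 (adjusted p = 0.013) without ES day 5 replicate 2 or 3 (up to 0.0918). Of 12 mesenchymal transition genes, 2 (Cdh2 and Tgfb2) had a lower response in the clones and 0 a higher one, with a median of -0.60. Of all genes, 1.04% had a lower and 1.08% a higher response.

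Imprinted genes, of which cells express the copy from 1 parent, gave some of the widest gaps on both days. Meg3, a maternally expressed long RNA of the Dlk1 to Dio3 domain, had 7.59, 7.58 and 7.50 in ST5 and 7.52, 7.57 and 7.76 in ST8, against 10.26, 10.13 and 10.33 in ES at day 0. At day 5 it had 5.17, 5.33 and 5.11 in ST5 and 5.07, 5.22 and 5.08 in ST8, against 10.18, 9.76 and 9.91 in ES. Each clone array was below every ES array on both days. Meg3 fell by 2.36 in ST5, by 2.50 in ST8 and by 0.29 in ES cells. The response difference was -2.14 (SE 0.12, adjusted p = 7.54e-08), between a start of -2.65 (SE 0.09, adjusted p = 1.24e-11) and an end of -4.79 (SE 0.09, adjusted p = 2.24e-15).

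At most measured genes of the same domain the gap was smaller in size at day 5. RefSeq places 103 genes in order between Dlk1 and Dio3, of which 48 were measured, 40 of them microRNA genes. This domain was chosen after its values were seen. The clones were lower at 43 of the 48 at day 0 and at 40 at day 5, against 2.62% and 4.28% of all genes. Dlk1 was the 1 gene higher in the clones at day 5. ES cells lowered 21 of the 48 by day 5, against 3927 of all 19938 genes. The clone ST5 lowered 6, against 4939 of all genes, and ST8 lowered 5, against 3896. Whether the lower day 0 levels of the clones limited their falls was not tested. The gap was smaller in size at day 5 for 34 of the 48, most of them without a called response difference. The share of all genes with a smaller gap at day 5 was not taken. A higher response in the clones was called for 4 of the 48, against 1.08% of all genes. These were 3 microRNA genes (Mir380, Mir381 and Mir376b), whose gaps narrowed, and Dlk1, with a start of -0.06 and an end of 0.81.

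Mir380 had 2.42, 2.71 and 2.42 in ST5 and 2.67, 2.68 and 2.63 in ST8, against 6.01, 5.55 and 6.03 in ES at day 0. At day 5, Mir380 had 2.41, 2.46 and 2.51 in ST5 and 2.20, 2.07 and 2.45 in ST8, against 4.86, 4.17 and 4.24 in ES. Clone arrays were below ES arrays on both days. The deposited values carry no detection call, so whether the clones' low levels of Mir380 and Mir381 lie above background is not known, and the narrowing rests on the ES arrays, where Mir380 fell by 1.44 and Mir381 by 1.23. Its response difference was 1.20 (SE 0.20, adjusted p = 0.0045), and the call was lost when all 30 arrays were fitted together (adjusted p = 0.0599). Mir381 had 2.56, 2.40 and 2.47 in ST5 and 2.63, 2.57 and 2.61 in ST8, against 4.67, 4.90 and 5.09 in ES at day 0, and 2.39, 2.45 and 2.63 in ST5 and 2.52, 2.41 and 2.64 in ST8, against 4.23, 3.57 and 3.16 in ES at day 5, with a response difference of 1.20 (SE 0.22, adjusted p = 0.0103). Rian, the long RNA that follows in the domain, had a start of -3.67, an end of -3.22 and a response difference of 0.44 (adjusted p = 0.248) that was not called.

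Dlk1, a paternally expressed Notch-like protein at the edge of the domain, had 7.56, 8.07 and 7.91 in ST5 and 7.27, 8.04 and 7.40 in ST8, against 6.88, 6.76 and 7.03 in ES at day 5, after 6.50, 6.71 and 6.51 in ST5 and 6.37, 6.30 and 6.58 in ST8, against 6.43, 6.57 and 6.66 in ES at day 0. All clone arrays were above all ES arrays at day 5. Its end of 0.81 (adjusted p = 0.00434) held with every array left out. The response difference of 0.87 (adjusted p = 0.0355) was lost in 11 of 18 leave-outs and after a further quantile normalization.

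Mature microRNAs of the 5 called microRNA genes, all but Mir30c-1, are shown for their seeds, bases 2 to 8 in capitals, which set the targets. Of Mirlet7f-1, only the 5p arm is shown. The probe sets are named by gene, so the values do not tell the arms apart. Nor do they tell mature microRNA from the longer transcript of its gene, so no difference in mature levels is shown. Sequences are from RefSeq (GRCm38.p6). The arms of Mir380, Mir376b and Mir381 lie on the plus strand of chromosome 12, from 109711806 to 109726891.
mmu-miR-380-5p: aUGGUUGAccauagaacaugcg
mmu-miR-380-3p: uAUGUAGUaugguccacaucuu
mmu-miR-376b-5p: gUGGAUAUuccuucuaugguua
mmu-miR-376b-3p: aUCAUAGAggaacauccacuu
mmu-miR-381-5p: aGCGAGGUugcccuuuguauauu
mmu-miR-381-3p: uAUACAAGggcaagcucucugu
mmu-let-7f-5p: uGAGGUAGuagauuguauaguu
The 76 mature sequences of the 40 measured microRNA genes of the domain had 74 different seeds. The last sequence belongs to Mirlet7f-1, at chr13:48537889-48537910 on the minus strand, whose seed is that of let-7a, let-7b and other let-7 microRNAs.

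Mirlet7f-1, of a family known for holding back pluripotency and growth genes, was an end difference. It had 4.32, 4.02 and 4.41 in ST5 and 4.37, 4.60 and 4.28 in ST8, against 4.81, 4.43 and 4.64 in ES at day 0. At day 5, Mirlet7f-1 had 5.80, 5.77 and 5.82 in ST5 and 5.72, 5.45 and 5.53 in ST8, against 4.85, 4.82 and 4.85 in ES. At the start ST8 and ES arrays overlapped and the ST5 arrays lay below the ES arrays, and all clone arrays were above all ES arrays at the end. The response difference of Mirlet7f-1 was 1.14 (SE 0.14, adjusted p = 0.000372). Its end was 0.84 (SE 0.10, adjusted p = 0.000134), and its start of -0.29 (adjusted p = 0.104) was not called.

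**Figure D4:**
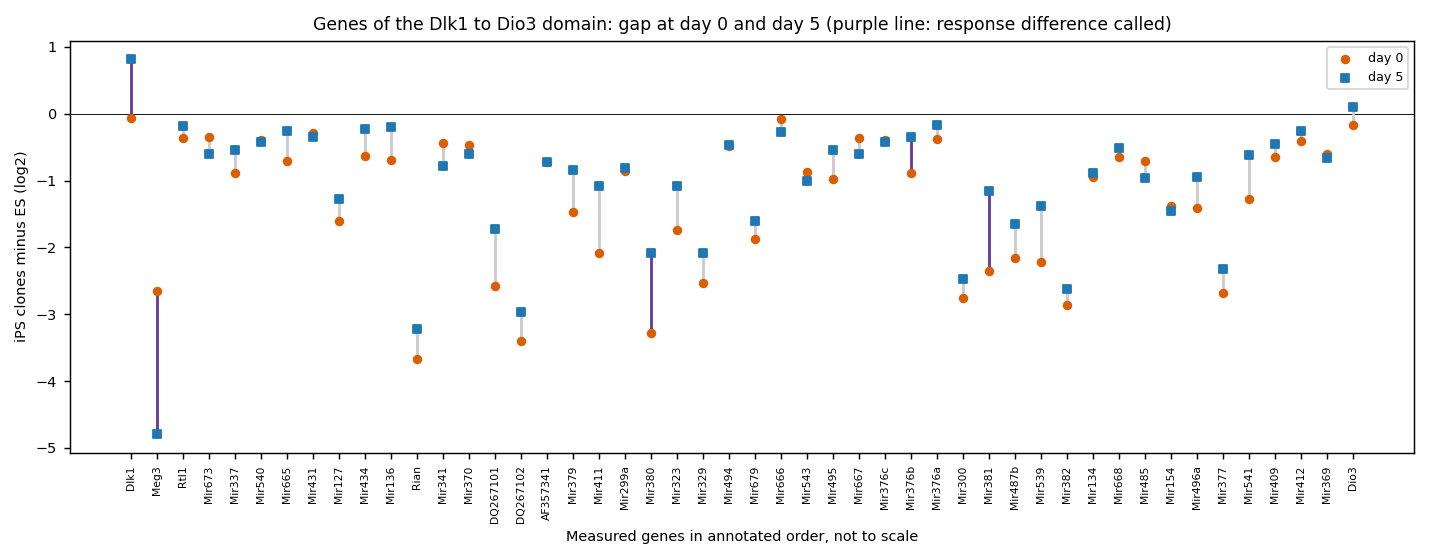
Gap between iPS clones and ES cells (log2) at day 0 (circles) and day 5 (squares) for the 48 measured genes between Dlk1 and Dio3, in annotated order. Purple lines mark the 5 genes called in the response difference. Meg3 widened its gap, while Mir380, Mir381 and Mir376b narrowed theirs.

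Other imprinted genes differed by locus. Zdbf2, a paternally expressed zinc finger gene, had 7.28, 6.66 and 6.50 in ST5 and 7.12, 7.04 and 6.85 in ST8, against 8.21, 8.37 and 8.31 in ES at day 0, with all clone arrays below all ES arrays. The gap was smaller at day 5, with a start of -1.39 (adjusted p = 4.49e-06), an end of -0.42 (adjusted p = 0.0517) and a response difference of 0.97 (adjusted p = 0.0104). Phlda2, a maternally expressed growth regulator, had a response difference of 0.57 (SE 0.08, adjusted p = 0.000967), lower in the clones at day 0 and higher at day 5, and its call was lost when all 30 arrays were fitted together (adjusted p = 0.22). Its start call of -0.23 (adjusted p = 0.0219) was lost without ST8 day 0 replicate 1 or any 1 of the ES day 0 arrays (adjusted p up to 0.0903), and ST8 arrays overlapped with ES arrays at day 0. Of 23 paternally expressed genes 2 had a higher and 3 a lower response, and of 16 maternally expressed genes 1 each. Of all genes, 1.08% had a higher and 1.04% a lower response.

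Nr1h5 had the widest gap among all 423 genes. This nuclear receptor, a relative of the bile acid receptor, had 9.26, 9.27 and 9.75 in ST5 and 9.92, 9.82 and 9.91 in ST8, against 3.34, 3.09 and 2.88 in ES at day 0. At day 5, Nr1h5 had 6.26, 6.62 and 6.64 in ST5 and 8.81, 6.66 and 8.85 in ST8, against 3.13, 2.93 and 3.35 in ES. On both days the clone arrays lay above the ES arrays. Nr1h5 fell in both clones, ST8 replicate 2 lying with ST5 at day 5. The start was 6.55 (SE 0.34, adjusted p = 5.76e-09), the end 4.17 (SE 0.34, adjusted p = 2.72e-06) and the response difference -2.39 (SE 0.48, adjusted p = 0.0167), whose call was lost without ES day 0 replicate 3 or ES day 5 replicate 3 (adjusted p up to 0.0658). Sycp1, a protein of the meiotic synaptonemal complex, lies beside it on chromosome 3, with 1 predicted gene start between them in RefSeq. It had 4.99 to 5.44 in ST5 and 5.26 to 5.70 in ST8, against 2.94 to 3.26 in ES at day 0 and 2.28 to 2.44 in ST5 and 2.21 to 2.64 in ST8, against 2.25 to 2.55 in ES at day 5. The clones were above ES cells at the start alone, and the response difference was -2.36 (SE 0.18, adjusted p = 2.23e-06).

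The clones were then set against ES cells one at a time. Both comparisons share the ES arrays, so their values are given side by side and not as independent support. ST5 differed from ES cells in its response at 1110 genes (5.57%) and ST8 at 171 (0.858%). Of the 423 genes of the mean, 103 were called with the same sign in each clone, 257 in ST5 alone, 42 in ST8 alone and 21 in neither. The test of the difference between clones called 437 genes (2.19%), 38 of which were among the 423. These counts moved with single arrays. For ST5 they ranged between 351 without ES day 5 replicate 3 and 3277 without ES day 5 replicate 1, and leaving out ST5 day 0 replicate 2, ES day 0 replicate 1 or 3, any ST5 day 5 array, ST8 day 5 replicate 2 or ES day 5 replicate 2 also moved the count by over 1.5 times. For ST8 they ranged between 92 without ST8 day 0 replicate 1 and 648 without ST8 day 5 replicate 2, and moved as far without ST8 day 0 replicate 3, ES day 0 replicate 1 or 3, ST8 day 5 replicate 3 or ES day 5 replicate 1. ST5 minus ST8 ranged between 28 without ST8 day 5 replicate 3 and 3955 without ST8 day 5 replicate 2, and only without ST5 day 0 replicate 3 or ES day 0 replicate 2, ES day 5 replicate 2 or ES day 5 replicate 3 did it stay within 1.5 times of 437.

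Nnat, a paternally expressed membrane protein, separated the clones most firmly. It had 6.35, 6.17 and 6.14 in ST5 and 4.82, 5.15 and 4.87 in ST8, against 6.56, 6.59 and 6.52 in ES at day 0. At day 5, Nnat had 9.45, 9.11 and 9.24 in ST5 and 5.11, 5.40 and 5.54 in ST8, against 9.55, 9.26 and 9.42 in ES. ST5 and ES arrays overlapped at day 5, and ST8 arrays were below both. The response difference from ES was 0.20 (adjusted p = 0.498) for ST5 and -2.45 (adjusted p = 8.03e-07) for ST8, and ST5 minus ST8 was 2.65 (SE 0.17, adjusted p = 7.63e-07). The mean over the clones, -1.13, therefore describes neither of them.

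Slc7a3 and Bcat1, a transporter of basic amino acids and an enzyme of branched-chain amino acid breakdown, fell further in ST5 than in ST8. Slc7a3 had 6.43, 6.64 and 6.54 in ST5 and 10.08, 8.32 and 10.07 in ST8, against 9.07, 9.62 and 9.72 in ES at day 5. Here all ST5 arrays were below all others, with ST8 replicate 2 next. Bcat1 had 5.88, 5.93 and 5.77 in ST5 and 8.67, 6.86 and 8.43 in ST8, against 7.49, 8.11 and 8.16 in ES, in the same order. ST5 minus ST8 was -2.80 (SE 0.45, adjusted p = 0.0106) for Slc7a3 and -2.20 (SE 0.44, adjusted p = 0.0258) for Bcat1, and for neither was the mean of the clones called against ES cells. Ttr differed between the clones by 2.12 (SE 0.41, adjusted p = 0.0235).

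**Figure D5:**
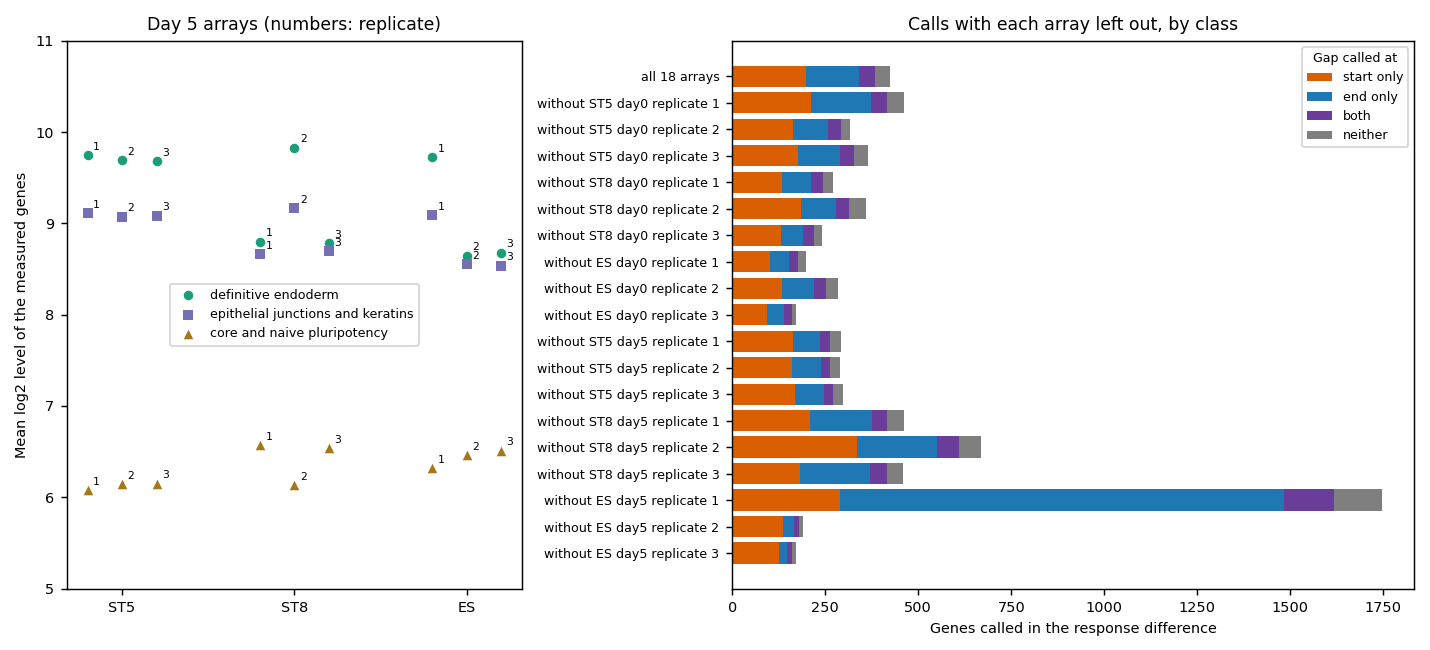
Left, mean log2 level of 3 gene lists on the 9 arrays of day 5 for ST5, ST8 and ES cells, numbered by replicate. Right, number of genes called in the response difference with all 18 arrays (423) and with each array left out, split by where the gap was called. ES replicate 1 and ST8 replicate 2 stand with the ST5 arrays in the endoderm list, and leaving out ES day 5 replicate 1 gives the longest bar (1746).

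Several markers of the compared states gave no call in the response difference, unlike Mixl1, Eomes, Cer1 and Epcam above. Sox17 had -0.35 (adjusted p = 0.82), Foxa2, a pioneer factor of endoderm, -0.86 (adjusted p = 0.246), the chemokine receptor Cxcr4 -0.89 (adjusted p = 0.283) and Hhex, a factor of anterior endoderm, 0.44 (adjusted p = 0.756). Their standard errors were 0.61, 0.36, 0.40 and 0.60, larger than the difference for Sox17 and Hhex and smaller than it for Foxa2 and Cxcr4. Foxa2 and Cxcr4 were nevertheless higher in the clones at the start, at 1.17 (adjusted p = 0.0129) and 1.29 (adjusted p = 0.0138). The first call was lost without ES day 0 replicate 1 or 3, and the second without ES day 0 replicate 1 or 2. Pou5f1 and Nanog had -0.39 (adjusted p = 0.827) and -1.18 (adjusted p = 0.405), and the sorting genes Sox2 and Kit -0.05 (adjusted p = 0.963) and -0.06 (adjusted p = 0.964). Of the 22 definitive endoderm genes, 1 (Epcam) had a higher and 1 (Cer1) a lower response in the clones, with a median of 0.08, and 5 of them were higher in the clones at day 0. Over all genes these shares were 1.08%, 1.04% and 2.25%.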

How the data were processed

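RNA of 18 unamplified arrays was measured on Affymetrix Mouse Gene 1.0 ST arrays. Each deposited value is the log2 level of a probe set, made by the authors with RMA per the submitters' processing notes. The RMA version and the genome build of the array are not given in the sources used here. Of 35556 probe sets, 23410 were listed in the platform annotation, 21789 of them with 1 gene and 1621 with several, and 12146 were not listed. Of the single-gene probe sets 99.9% matched a RefSeq gene. For 999 genes with more than 1 probe set the one with the highest mean was kept, which left 19938 genes. One value per gene and group was fitted to the 18 arrays with limma 3.58.1 in R 4.3.3 (12 residual degrees of freedom) and contrasts were tested with moderated statistics, two-sided, after the code was tested on simulated data. P-values rest on a spread between arrays estimated per gene over all 6 groups, and not on that of the compared groups alone. That spread was larger in ST8 and ES cells at day 5 than in any group at day 0. The number of 3 arrays a group limits the precision.

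Named genes were the 8 highest and 8 lowest among genes called in both clones, the 3 largest of each class, the 4 largest between clones, the 2 highest and 2 lowest called genes of each list, and fixed markers. The members and lists were chosen with earlier results of these data known. Alternatives covered the arrays in the fit, normalization, dim genes, probe sets, the spread model, a replicate block, a fold minimum and each array left out. Leaving out both most deviant day 5 arrays, and the list counts under each alternative, were added after seeing the data. Same-numbered arrays were not paired: 9 of 45 pairs correlated above 0.1 in their deviations from the group means. The 12 other arrays entered only the fit of all 30.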

Additional observations from a re-analysis of the deposited data

Results flagged for a closer look

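The items below were singled out because the responses of the clones and ES cells, or of the clones, differed by a test of that difference itself (limma, adjusted p under 0.05). This held for 423 genes between clones and ES cells and for 437 between ST5 and ST8. The values are log2 response differences, clones minus ES cells unless said otherwise.

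Lower responses were found for genes of the primitive streak, Wnt, BMP, FGF and retinoic acid lists and for Cer1 of the Nodal and endoderm lists, namely Bmp4 (-2.38), Chrd (-1.16), Mixl1 (-1.91), Eomes (-1.57), Fgf8 (-0.86), Sp5 (-1.46), Lef1 (-1.21), Lgr5 (-1.64), Cer1 (-1.14), Dusp4 (-1.09) and Cyp26a1 (-2.14). Among imprinted genes, neighbours of the Dlk1 to Dio3 domain and let-7, lower responses were those of Meg3 (-2.14), Nnat (-1.13) and Peg10 (-0.74), and higher ones those of Dlk1 (0.87), Zdbf2 (0.97), Phlda2 (0.57), Mir380 (1.20), Mir381 (1.20) and Mirlet7f-1 (1.14). Higher responses of epithelial genes, of Nodal (0.68) and of Klf4 were called, with values for Cldn7 (1.37), Grhl2 (1.15), Epcam (0.56), Prss8 (1.39) and Klf4 (0.77).

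Other higher responses belonged to Tnc (2.31), Ttr (1.86), Apob (1.25), Slc13a4 (1.78), Klhl13 (1.53), Tmem54 (1.42), Cpq (1.05), Gstp1 (1.04), Kcnk1 (1.02), Mal2 (1.01), Tet2 (0.90), Bnip3 (0.48) and Mcm4 (0.32). With single arrays left out, the call held in 14 of 18 cases for Klhl13, 13 for Mcm4, 9 for Slc13a4, 6 for Tmem54 and 4 for Bnip3. Other lower responses belonged to Nr1h5 (-2.39), Sycp1 (-2.36), Cdh2 (-1.99), Epha4 (-1.96), Tgfb2 (-1.62), Mcc (-1.58), Nmi (-0.98), Trf (-0.89), Nr5a2 (-0.82), Sox11 (-0.81), Apoa2 (-0.60) and Col1a1 (-0.60). Here the call held in 13 of 18 cases for Nr5a2 and 9 each for Nmi and Col1a1. Between the clones, ST5 minus ST8 was called for Slc7a3 (-2.80), Nnat (2.65), Bcat1 (-2.20) and Ttr (2.12).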

How the results depend on the processing

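With 1 array left out at a time, the response difference was called for 171 to 1746 genes, ST5 minus ES for 351 to 3277, ST8 minus ES for 92 to 648 and ST5 minus ST8 for 28 to 3955. The start ranged over 487 to 1458 and the end over 233 to 4485. The ES response ranged over 6691 to 8407, that of ST5 over 8680 to 10019 and that of ST8 over 7115 to 8416. Calls at the start alone numbered 93 to 335, at the end alone 23 to 1193, at both 14 to 135 and at neither 10 to 129. The larger gap was at day 0 for 57 to 163 genes and at day 5 for 15 to 634, with 96 to 960 not told apart.

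Without both ES day 5 replicate 1 and ST8 day 5 replicate 2, an alternative chosen after seeing the data, the counts were 2846 for the response difference, 5293 for ST5 minus ES, 1232 for ST8 minus ES, 5048 for ST5 minus ST8, 2240 for the start and 5123 for the end. Start alone, end alone, both and neither then held 499, 1748, 400 and 199, and the gap was larger at day 0 for 247, at day 5 for 1252 and not told apart for 1347. All 423 genes were among the 2846. Array weights gave 2081 for ST5 minus ES, 835 for ST5 minus ST8, 1858 for the start, 748 for the end and 75 gaps larger at day 5. Fitting the groups of a contrast alone gave 1868 for ST5 minus ES, 88 for ST8 minus ES, 32 for ST5 minus ST8, 1739 for the start and 140 for the end. A further quantile normalization gave 703 for ST5 minus ST8, leaving out dim genes gave 912 and 71 gaps larger at day 5, and all 30 arrays gave 63 genes called at neither day. The cause was not tested. The share of higher calls was 50.8% and 57.8% after a shift to a common median, and 63.0% without dim genes.

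A log2 difference of at least 1 left, by its construction, 70 genes in the response difference, 222 for ST5 minus ES, 45 for ST8 minus ES, 50 for ST5 minus ST8, 52 at the start and 94 at the end. It left 2207, 1436 and 1315 in the responses of ST5, ST8 and ES cells, 18, 14 and 4 called at the start alone, the end alone and both, and 16, 12 and 42 with the gap larger at day 0, larger at day 5 and not told apart. With the replicate number as a block, 347 genes were called in the response difference, 218 in ST5 minus ST8 and 23 at neither day.

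Sox2, Kit, Pou5f1 and Sox17, none of them called, changed sign. Without single arrays Sox2 ranged over -0.27 to 0.22 (also 0.04, 0.12 and 0.0026), Kit over -0.39 to 0.51 (also 0.02, 0.05 and 0.09), Pou5f1 over -0.79 to 0.15 and Sox17 over -0.73 to 0.36. Without both deviant arrays Kit had 0.25 and Sox17 0.034.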

Other observations

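Of 20 measured FGF pathway genes, 3 had a lower response in the clones (Dusp4, Fgf8 and Spry2) and 0 a higher one, against 1.04% and 1.08% of all genes. The median was -0.23, beside -0.02 over all genes, and the calls of Dusp4 and Fgf8 each held in 16 of 18 leave-outs. Spry2, a feedback inhibitor of receptor tyrosine kinases chosen after its values were seen, had 9.11, 9.15 and 9.27 in ST5 and 9.27, 9.32 and 9.28 in ST8, against 8.94, 8.85 and 8.89 in ES at day 0 and a response difference of -0.49 (SE 0.09, adjusted p = 0.0097). Dusp4, a phosphatase that turns off ERK, was an end difference, with 8.29, 8.36 and 8.36 in ST5 and 8.95, 8.77 and 9.07 in ST8, against 8.93, 9.51 and 9.58 in ES at day 5 and a response difference of -1.09 (SE 0.21, adjusted p = 0.0131), lost without ES day 5 replicate 2 or 3. In the BMP pathway, Bmp4 and its antagonist Chrd were the 2 of 15 genes called lower, Chrd at -1.16 (adjusted p = 0.0457) with a start of 0.77 (adjusted p = 0.0397). The Chrd response call held in 5 and its start call in 7 of 18 leave-outs, and the response call was lost after a common-median shift, with a robust trend and with the replicate block.

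Among pluripotency genes, Klf4, a factor of the naive state, had 7.40, 7.46 and 7.28 in ST5 and 5.88, 6.36 and 6.19 in ST8, against 5.99, 5.34 and 5.78 in ES at day 5. Its response difference of 0.77 (adjusted p = 0.0395) held in 5 of 18 leave-outs and was lost with the replicate block. By clone it was 1.57 (adjusted p = 0.00141) for ST5 and -0.02 (adjusted p = 0.985) for ST8, and ST5 minus ST8 was 1.59 (adjusted p = 0.0046). Nr5a2, which can drive Pou5f1, had a response difference of -0.82 (adjusted p = 0.0243), which held in 13 of 18 leave-outs. These were the 2 calls among 26, against 2.12% of all genes. Mest, a paternally expressed hydrolase gene chosen after its values were seen, had a response difference of -0.67 (adjusted p = 0.0103), and Peg10, a paternally expressed gene of retrotransposon origin, one of -0.74 (adjusted p = 0.0425), with -0.05 (adjusted p = 0.918) for ST5 and -1.43 (adjusted p = 0.00233) for ST8. The Peg10 call for the mean held in 3 of 18 leave-outs and was lost after a common-median shift and with the replicate block. The foregut, posterior, parietal endoderm, surface ectoderm, mesoderm, endothelium, blood, p53, immediate early and cholesterol lists held no called gene by limma. With 2.12% of all genes called, lists this small can hold none without differing from other genes.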
